A study of Mus musculus with 8 samples.

Results

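The array carried 16251 probes designed against long intergenic noncoding RNAs (lincRNAs), of which 9158 (56.4%) were kept for description out of 55681 non-control probes in all. A probe counted as a lincRNA probe when its name placed it in the maker's lincRNA series or when its annotation was a genome interval and not a transcript. It was kept when the scanner software called its signal well above background on both arrays in 1 or more of the 4 groups. The same requirement kept 28101 (71.3%) of the other non-control probes. Of the kept lincRNA probes, 9128 carried only an interval of the mouse mm9 build and, but for 6 of them, an orientation mark, F or R, whose relation to the genome's strands is not stated. The other 30 carried the name of a long noncoding RNA.

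LincRNAs are transcripts made and processed much like messenger RNAs, from stretches of genome between protein-coding genes, without coding for a protein. Most are made at low levels and in few cell types, and lymphocytes switch many of them when the T cell receptor and CD28 are engaged. A few abundant ones, such as Malat1 and Neat1 of nuclear speckles and paraspeckles or Xist of the inactive X chromosome, are well studied. Most of the intervals on this array have no known function.

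Splenic T cells came from Lsp1-deficient mice (KO, Lsp1-/-), backcrossed to C57BL/6 for 10 generations, and from wild-type C57BL/6 mice (WT, Lsp1+/+) matched for age and sex. Mice were 8 to 12 weeks old. Lsp1 is a leukocyte protein that binds filamentous actin. Cells of each genotype were kept in medium or given anti-CD3/CD28 antibodies for 6 hours, and each of the 4 groups had 2 one-colour arrays. The KO lacked Lsp1 from the germline, in every cell type. How the T cells were purified is not stated in the sources used. Nor do they state that replicates came from separate mice, so p-values rest on the spread within pairs of arrays that may be technical replicates. All 8 arrays shared 1 slide and 1 scan. On that slide the stimulated and medium samples lay in different rows and the genotypes in different columns, so slide position cannot be told apart from group.

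Labels and arrays were checked on probes outside the lincRNA set. The Lsp1 probe differed between KO and WT by -3.79 in medium and -3.35 after stimulation on the log2 scale, and Il2, Ifng, Csf2, Irf4, Myc and Egr1 rose with stimulation in both genotypes (limma, adjusted p below 0.05). All 16 T cell marker probes were well above background on all 8 arrays. The KO replicate 2 arrays differed from all the others in markers of other cells. Relative to the WT mean of the same condition, the median of 13 neutrophil and precursor probes was 4.31 higher in medium and 3.97 higher after stimulation (log2), and that of 8 erythroid and platelet probes 2.02 and 2.47 higher. The medians of 7 monocyte and macrophage probes were 0.89 and 2.21 higher, and those of 6 cell cycle probes 1.24 and 1.45 higher. On the KO replicate 1 arrays the neutrophil median was 0.02 and -0.05. B cell medians lay between -0.74 and -0.48 on the KO arrays and natural killer cell medians between -0.66 and -0.42. The part of these cells in the KO values given here was not tested. In such bulk samples fewer cells of a type and less RNA per cell cannot be told apart.

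The named long noncoding RNAs are the members whose sequence could be shown. RefSeq promoters (GRCm38.p6, 250 bases before to 50 after the start of the gene) were held for Malat1, Tug1, Xist, Kcnq1ot1 and Nron. They were searched on both strands for AP-1 (TGANTCA), the NFAT core (GGAAA), the GC box (GGGCGG) and the cyclic AMP response element (TGACGTCA), motifs of factors that act after T cell receptor engagement or at constitutive promoters. Of 32851 promoters of that length, 7.81% held the AP-1 letters, 61.3% the NFAT core, 35.7% the GC box and 1.79% the response element. All 5 are shown, 5' to 3', with matches in capitals. The complement of the NFAT core reads TTTCC.
Malat1 promoter (chr19:5802623-5802922, minus strand): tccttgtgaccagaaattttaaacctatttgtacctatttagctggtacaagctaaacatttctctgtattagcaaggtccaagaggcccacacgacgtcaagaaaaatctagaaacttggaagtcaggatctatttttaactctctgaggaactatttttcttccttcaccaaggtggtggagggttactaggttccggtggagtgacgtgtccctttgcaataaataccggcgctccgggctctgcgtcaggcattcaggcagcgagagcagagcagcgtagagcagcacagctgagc
Xist promoter (chrX:103483184-103483483, minus strand): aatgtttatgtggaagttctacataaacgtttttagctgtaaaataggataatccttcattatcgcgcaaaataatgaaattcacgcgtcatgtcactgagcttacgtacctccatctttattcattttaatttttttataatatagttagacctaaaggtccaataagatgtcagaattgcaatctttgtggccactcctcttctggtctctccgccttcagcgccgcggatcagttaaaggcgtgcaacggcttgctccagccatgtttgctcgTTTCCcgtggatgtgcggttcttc
Tug1 promoter (chr11:3648765-3649064, minus strand): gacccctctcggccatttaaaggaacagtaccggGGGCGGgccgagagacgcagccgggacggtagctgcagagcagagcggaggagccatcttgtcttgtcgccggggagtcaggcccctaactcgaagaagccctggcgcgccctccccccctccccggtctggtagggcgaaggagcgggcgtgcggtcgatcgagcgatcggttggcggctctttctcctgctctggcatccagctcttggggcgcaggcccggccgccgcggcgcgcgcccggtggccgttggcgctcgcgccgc
Kcnq1ot1 promoter (chr7:143296498-143296797, minus strand): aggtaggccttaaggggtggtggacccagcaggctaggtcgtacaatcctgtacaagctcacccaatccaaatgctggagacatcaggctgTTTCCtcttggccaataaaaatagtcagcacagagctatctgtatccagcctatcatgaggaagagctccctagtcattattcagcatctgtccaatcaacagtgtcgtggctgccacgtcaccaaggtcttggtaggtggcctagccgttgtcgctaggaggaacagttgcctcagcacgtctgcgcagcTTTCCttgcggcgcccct
Nron promoter (chr2:33805566-33805865, plus strand): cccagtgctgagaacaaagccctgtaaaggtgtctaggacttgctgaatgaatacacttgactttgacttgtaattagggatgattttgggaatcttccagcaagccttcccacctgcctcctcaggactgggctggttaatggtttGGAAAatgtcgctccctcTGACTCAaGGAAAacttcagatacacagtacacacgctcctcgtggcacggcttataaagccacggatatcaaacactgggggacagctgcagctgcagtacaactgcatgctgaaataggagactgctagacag
Malat1 held none of the 4 motifs, Xist 1 NFAT core, Tug1 1 GC box, and Nron 1 AP-1 match with 2 NFAT cores. Kcnq1ot1 held 2 NFAT cores. A match is a description of the letters only.

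LincRNA probes were detected less evenly across the arrays than the other probes. On the WT medium arrays 59.7% and 59.1% of the 16251 lincRNA probes were well above background, and on the KO medium arrays 54.4% and 45.2%. The stimulated arrays gave 44.8% and 43.8% in WT and 45.9% and 47.0% in KO. Both WT medium arrays thus lay above the other 6, as they did for the other probes, at 73.2% and 72.8%. The other probes moved over a narrower range, between 64.4% and 73.2%. Of the kept lincRNA probes, 6269 (68.5%) were detected on all 8 arrays, against 86.0% of the other kept probes. A further 1609 were detected on both arrays of exactly 1 group. Among probes seen on both arrays of 1 group and on no other array, 462 belonged to WT medium, 2 to KO medium, 7 to WT stimulated and 23 to KO stimulated. Of the 7093 probes left out, 5166 were detected nowhere, 1492 on 1 array and 435 on 2 or more arrays that did not make up a group.

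**Figure D1:**
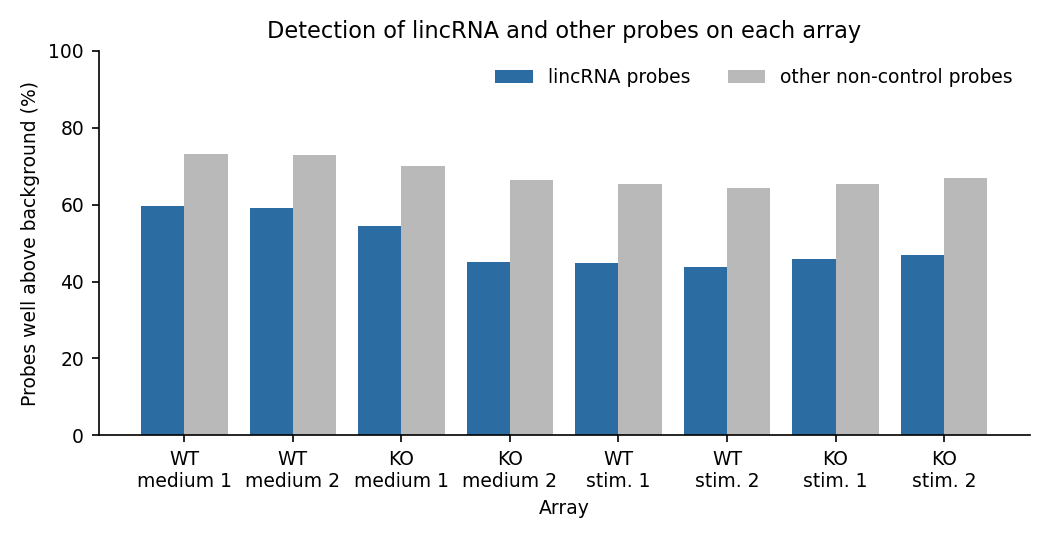
Share of lincRNA probes (blue) and of other non-control probes (grey) well above background on each of the 8 arrays, in percent. The blue bars range from 43.8% to 59.7% and the grey bars from 64.4% to 73.2%. The 2 WT medium arrays are highest for both kinds of probe.

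The kept probes covered 2913 of the 3543 intervals on the array (82.2%). The intervals with a kept probe were 62 to 538251 bp long, with a median of 8520 bp, each interval counted once. Of 1067 intervals probed in both orientations, 819 (76.8%) had a kept probe in each, 208 (19.5%) in 1 only and 40 in none. The interval with the most kept probes was chr19:53517903-53540753, with 20 of 20, 10 in each orientation. chr14:65431652-65437902, chr16:43623581-43642715 and chr7:99879368-99889978 each had 19 of 20, and chr10:126818382-126856582 had 18 of 20. None of the kept probes of these 5 intervals was called in any comparison between 2 groups. Their stimulation differences in WT ranged from -1.65 to 0.61.

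Anti-CD3/CD28 stimulation of WT cells changed a small part of the lincRNA probes, in both directions. By limma with Benjamini-Hochberg adjustment over all 37259 probes tested, 469 lincRNA probes (5.12%) were called at adjusted p below 0.05, against 6.13% of all probes tested. Of these, 191 were higher and 278 lower, while 3.56% of all probes were called higher and 2.57% lower. The median difference was -0.20 (log2) over the lincRNA probes and -0.12 over all probes. The balance of directions moved with the scaling and the filter. After quantile normalization 229 were higher and 173 lower, with normexp background correction 302 and 232, and in the deposited values 276 and 148, and the median of all probes was then -0.07, -0.04 and -0.02. With no filter on dim probes, over all 16251 lincRNA probes, 1928 were higher and 541 lower. A replicate block within genotype gave 244 and 707.

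Calls in the lower direction lay mostly near the detection limit. Of the 278 lower probes, 170 were not well above background on either stimulated WT array, and of the 191 higher ones 18 were so in medium. Among the 6269 probes detected on all 8 arrays, 251 (4.0%) were called, against 5.81% of all probes detected on all 8. The count also rested on single arrays, as did that over all probes tested. Both were lower when any 1 WT array was left out, and the counts of lincRNA probes follow. Leaving out WT medium replicate 1 gave 51 and leaving out its partner 226. Leaving out WT stimulated replicate 1 gave 62 and leaving out its partner 82. With 2 arrays against 2, an exact permutation test over arrays cannot give a two-sided p below 0.333.

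In KO cells stimulation gave 282 called lincRNA probes (3.08%), against 4.45% of all probes tested. Of these, 212 were higher and 70 lower, and the background shares were 3.40% and 1.05%. In medium 39 of the higher ones were not well above background on either array, and 35 of the lower ones were so after stimulation. Detected on all 8 arrays and called were 196 (3.13%, against 4.70% of all probes detected on all 8). The median difference was -0.08 over lincRNA probes and over all probes. The KO replicate 2 arrays carry the added neutrophil and erythroid signal given above, and without both of them 49 probes were called. Leaving out KO medium replicate 2 gave 69 and leaving out its partner 144. Without KO stimulated replicate 2 there were 155, and without any 1 WT array 140 to 145. In each of these runs with arrays left out, the count over all probes tested was lower too. Fitting just the 4 KO arrays called 0 lincRNA probes and 0 of all 37259 probes tested.

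The lists of both genotypes overlapped. Called higher in both were 133 lincRNA probes, which is 69.6% of the WT list and 62.7% of the KO list, against 75.1% and 78.6% over all probes tested. Called lower in both were 48, or 17.3% of the WT list and 68.6% of the KO list, against 28.6% and 70.3% over all probes tested. No probe was called in opposite directions. The sign was shared with KO by 235 of the 288 probes called in WT only. It was shared with WT by 90 of the 101 called in KO only. Whether the responses differ was tested directly, and limma called 0 lincRNA probes and 0% of all probes for the difference between responses. An unadjusted p below 0.05 was reached by 743 of the 9158 lincRNA probes and 1716 of the 37259 probes tested.

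**Figure D2:**
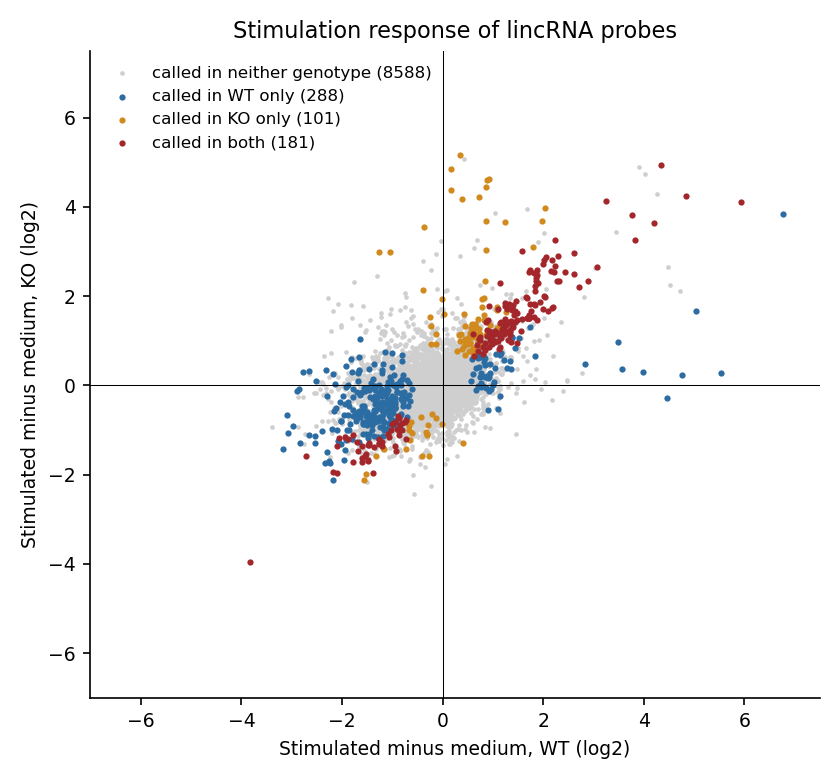
Stimulated minus medium difference of each of the 9158 lincRNA probes in WT (x axis, log2) and KO (y axis, log2), coloured by the genotype in which it was called at adjusted p below 0.05. The 181 probes called in both lie in the upper right and lower left, and a set called in 1 genotype lies along each axis.

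Several intervals had every kept probe of 1 orientation called. They were picked after their values were seen, as intervals with 3 or more kept probes of an orientation, all called in at least 1 genotype. There were 19 such rises and 4 such falls, and 13 of the rises and 1 of the falls held in both genotypes. They are a small part of the set, since 1917 intervals had 2 or more kept probes of the same orientation. How many the call rates alone would give was not tested. In 21 of the 23 every probe of the orientation had been kept, and in 17 every kept probe was well above background on all 8 arrays. Levels below are log2 signal relative to the 75th percentile of the array, so 0 is the signal that 75% of non-control probes lay below.

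On chromosome X, the 4 kept R probes of chrX:50087925-50101700, of 7 on the array, rose. None was well above background on a medium array, so they passed the filter only through stimulated groups, and being kept and being higher after stimulation go together for them. Probe A_30_P01026112 read -8.41 and -8.69 (WT) and -8.31 and -7.88 (KO) in medium, against -4.44 and -4.25 (WT) and -4.63 and -4.28 (KO) once stimulated. The stimulated and medium arrays did not overlap, and only the stimulated ones were well above background. Its difference was 4.21 ± 0.21 (SE) in WT (limma, adjusted p = 0.00104) and 3.64 ± 0.21 in KO (adjusted p = 0.00177). Since the probe was not well above background in WT medium, the rise is stated as at least 4.42-fold. Such bounds divide the brighter group's mean by a floor for the dimmer group. On each dim array the floor is the lowest signal of any probe well above background, or the probe's own signal where that is higher. The other 3 R probes had WT differences of 3.76, 2.23 and 3.82. The 6 kept probes of the opposite orientation did not pass the test and lay between -0.59 and 0.24 in WT and between -0.62 and 0.02 in KO.

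The 3 F probes of the short interval chr14:70483555-70484159 rose in both genotypes. A_30_P01020168 read -5.17 and -5.86 (WT) and -5.69 and -5.77 (KO) in medium, against -1.31 and -1.05 (WT) and -1.12 and -0.49 (KO) once stimulated. All 4 stimulated arrays lay above all 4 medium arrays. The difference was 4.34 ± 0.30 in WT (limma, adjusted p = 0.00198) and 4.93 ± 0.30 in KO (adjusted p = 0.00177). The other 2 probes rose by 3.26 and 1.14 in WT and by 4.14 and 1.09 in KO. The 3 probes thus shared the direction and not the size.

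Chromosome 10 held an interval, chr10:95772764-95825001, whose 3 F probes were well above background on all 8 arrays. A_30_P01026001 read -3.36 and -3.30 (WT) and -3.45 and -3.17 (KO) in medium, against -0.50 and -0.74 (WT) and -1.14 and -1.08 (KO) once stimulated. Its difference was 2.71 ± 0.15 in WT (limma, adjusted p = 0.00120) and 2.20 ± 0.15 in KO (adjusted p = 0.00238). The other 2 probes rose by 1.58 and 2.61 in WT and by 1.48 and 2.50 in KO. Stimulated and medium arrays did not overlap for any of the 3.

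A stretch of chromosome 16 responded in both orientations. In chr16:84702353-84710928 the 3 R probes rose by 2.02 to 2.29 in WT and 2.80 to 2.89 in KO, and the 3 F probes by 1.25 to 1.73 and 1.85 to 2.58. The 3 F probes of chr16:84707202-84707748, which lies inside it, rose by 2.0 to 2.23 and 2.55 to 2.73. R probe A_30_P01020928 read -0.92 and -0.81 (WT) and -0.84 and -0.91 (KO) in medium, against 1.32 and 1.52 (WT) and 1.64 and 2.38 (KO) once stimulated. The highest value came from KO stimulated replicate 2. Its difference was 2.29 ± 0.24 in WT (limma, adjusted p = 0.00744) and 2.89 ± 0.24 in KO (adjusted p = 0.00391). Over the whole stretch, with its 4 intervals, 10 of 11 kept probes were called higher in each genotype. The smallest difference there was 0.42 in WT and 0.37 in KO.

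Intervals on chromosomes 1 and 11 each had 5 of 5 R probes called in both genotypes. In chr1:175705225-175717250 the R probes were bright on every array and rose by 1.33 to 1.81 in WT and 1.42 to 1.54 in KO. A_30_P01023338 read 1.75 and 1.73 (WT) and 1.83 and 1.69 (KO) in medium, against 3.59 and 3.5 (WT) and 3.19 and 3.42 (KO) once stimulated. The difference was 1.81 ± 0.14 in WT (limma, adjusted p = 0.00273) and 1.54 ± 0.14 in KO (adjusted p = 0.00423), with no overlap of stimulated and medium arrays. The 5 F probes had differences of 0.66 to 1.40 in WT, of which 1 was called.

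In chr11:53592946-53637922 the 5 R probes rose by 1.21 to 1.56 in WT and 0.98 to 1.23 in KO. The 3 F probes lay at -0.01, 0.07 and 0.17 in WT and were not called. A_30_P01029685, an R probe, read -1.29 and -1.03 (WT) and -1.12 and -1.44 (KO) in medium, against 0.46 and 0.32 (WT) and 0.10 and -0.21 (KO) once stimulated. All 4 stimulated values were above all 4 medium values, with a difference of 1.56 ± 0.19 in WT (limma, adjusted p = 0.0111) and 1.23 ± 0.19 in KO (adjusted p = 0.0225). The 3 R probes of the overlapping interval chr11:53596919-53672731 rose by 1.1 to 1.33 and 1.0 to 1.22.

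On chromosome 15 the 3 kept R probes of chr15:61919018-61935580 were called in KO and not in WT. Their differences were 1.29 to 1.75 in KO and 0.43 to 0.79 in WT. A_30_P01023290 read -4.99 and -5.45 (WT) and -5.36 and -5.78 (KO) in medium, against -4.35 and -4.50 (WT) and -3.91 and -3.73 (KO) once stimulated. Stimulated arrays lay above medium arrays in both genotypes. The difference was 1.75 ± 0.22 in KO (limma, adjusted p = 0.0123) and 0.79 ± 0.22 in WT (adjusted p = 0.0831). The test of the difference between responses called no probe, so the genotypes are not shown to differ here.

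Falls that every kept probe shared were fewer. In WT they lay between -1.83 and -1.36, smaller in size than the largest rises and larger than some of the others. The 3 F probes of chr7:16633756-16634410 were bright on all arrays and fell in both genotypes. A_30_P01019086 read 3.52 and 3.40 (WT) and 3.38 and 3.03 (KO) in medium, against 1.76 and 1.95 (WT) and 2.0 and 1.15 (KO) once stimulated. The lowest value came from KO stimulated replicate 2. The difference was -1.60 ± 0.29 in WT (limma, adjusted p = 0.0334) and -1.63 ± 0.29 in KO (adjusted p = 0.0347), and the other 2 probes gave -1.54 and -1.52 in WT.

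The 3 F probes of chr10:83185606-83225506 fell in WT, with differences of -1.36, -1.49 and -1.61. In KO 2 of them were called, at -1.38 and -1.35, and the third, at -1.17, was not (limma, adjusted p = 0.0589). A_30_P01033328 read -2.14 and -2.21 (WT) and -2.40 and -2.59 (KO) in medium, against -3.82 and -3.75 (WT) and -3.74 and -3.95 (KO) once stimulated. All stimulated values were below all medium values.

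**Figure D3:**
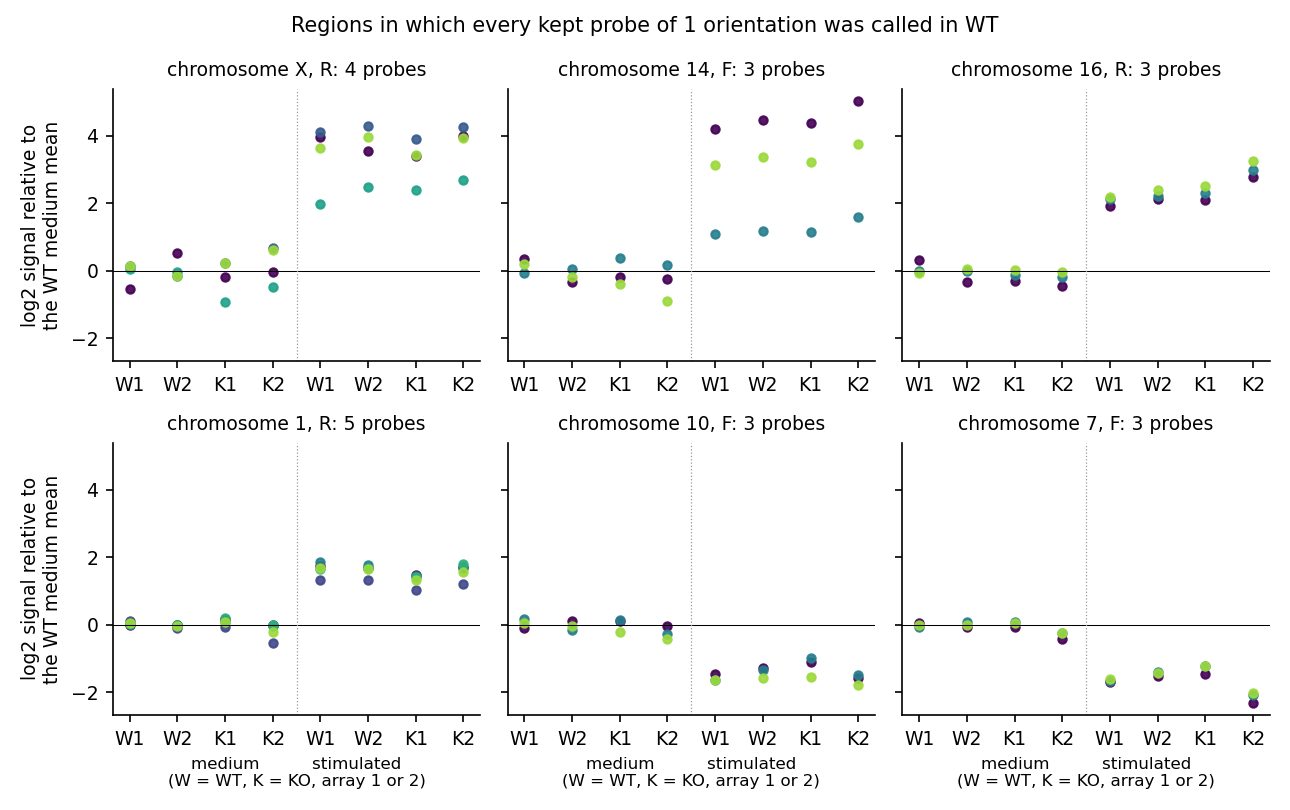
log2 signal of every kept probe of 1 orientation in 6 intervals, named by chromosome, on each of the 8 arrays, relative to the probe's own mean over the 2 WT medium arrays. Each colour is 1 probe, W is WT and K is KO. In the chromosome X, 14, 16 and 1 intervals all stimulated arrays lie above all medium arrays, and in the chromosome 10 and 7 intervals all lie below.

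The calls in these 23 intervals kept their sign under the alternative runs, while the number called depended on which arrays were used. Those runs reuse the 8 arrays on which the intervals were picked, so the kept sign is no separate support. With no filter on dim probes, 43 of the 65 probes called in KO in these intervals were called. Of the 67 probes called in WT in these intervals, 64 or more were called under quantile normalization, normexp, the deposited table and no filter on dim probes. Leaving out WT medium replicate 1 left 18 of them called and leaving out its partner 33, and leaving out WT stimulated replicate 1 or 2 left 17 and 21. Of 65 probes called in KO, 15 were called without both KO replicate 2 arrays and 0 when just the 4 KO arrays were fitted, all with the same sign. Requiring all 8 arrays well above background left 58 of the 67 and 56 of the 65 to be tested.

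A few neighbouring intervals were called in the same direction. Called intervals were chained when at most 100 kb lay between them, a distance set after the data were seen and not tested. In WT 4 of 102 rising chains and 3 of 198 falling chains held 3 or more intervals, and in KO 5 of 95 and 0 of 46. On chromosome 1, 5 intervals between 139795171 and 139857204 held 11 probes called lower in WT, with differences of -2.83 to -1.18. All 16 kept probes within that span, over 6 intervals, had a median difference of -1.51 in WT and -0.87 in KO, where 2 were called. The 3 F probes of chr1:139822286-139822985 gave -1.83 to -1.49 in WT and -0.87 to -0.67 in KO. A_30_P01026572 of that interval read -0.64 and -1.27 (WT) and -1.50 and -1.55 (KO) in medium, against -2.91 and -2.65 (WT) and -2.17 and -2.59 (KO) once stimulated. Stimulated values were below medium values in each genotype, and the WT medium arrays were the highest.

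The chains of rising probes lay on chromosomes 1, 11, 15 and 16. Between 175653557 and 175717250 on chromosome 1, over 4 intervals, 11 of 23 kept probes were called higher in WT and 12 in KO. All 23 differences were 0.53 or more in WT and 0.77 or more in KO. Between 138442536 and 138587381 on the same chromosome 7 of 35 were called higher in WT and 8 in KO, and 1 was called lower in WT. Between 61919018 and 62102500 on chromosome 15, 6 of 28 were called higher in WT and 13 in KO. On chromosome 11, between 53574182 and 53672731, 8 of 14 were called higher in WT and 9 in KO. Chromosome 6 had chains of falling probes. In WT 4 of 8 kept probes were called lower between 134839791 and 134931975, and 3 of 13 between 31170350 and 31293337. In KO 2 were called lower in each. In the first span all 8 differences were -0.64 or lower in WT and -0.42 or lower in KO. In the second the 13 ranged from -1.49 to 0.18 in WT and from -1.70 to -0.05 in KO.

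Probes of 1 interval resembled each other more when they had the same orientation. Over 11660 pairs of the same interval and orientation, the WT differences had a Pearson correlation of 0.41, and over 9330 pairs of opposite orientation it was 0.12. In KO the values were 0.44 and 0.19. Among probes detected on all 8 arrays they were 0.58 (6789 pairs) and 0.21 (4627 pairs) in WT, and 0.63 and 0.37 in KO. These are descriptions across probes that share arrays, and probes of an interval share their target, so they carry no p-value. Of the 191 probes called higher in WT, 164 had another kept probe of the same interval and orientation, and for 99 such a probe was called the same way. For the 278 called lower these numbers were 243 and 85. In KO they were 189 and 131 for rises and 59 and 28 for falls.

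**Figure D4:**
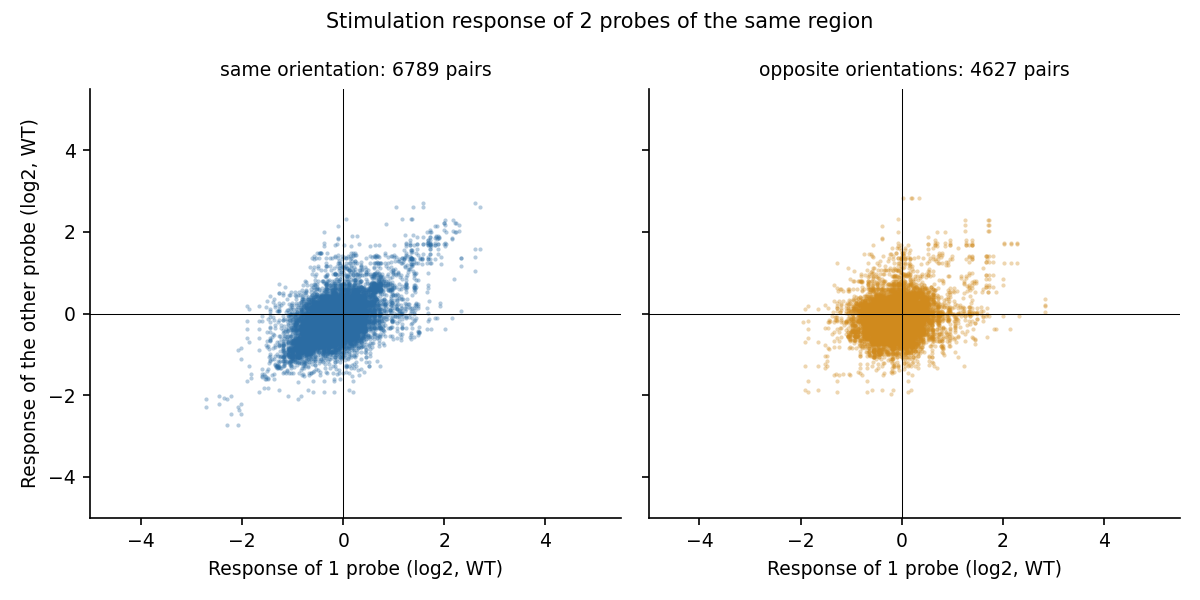
WT stimulation response (log2) of 1 probe against that of another probe of the same interval, for probes detected on all 8 arrays. Each pair is drawn both ways round, with 6789 pairs of the same orientation (left, blue) and 4627 of opposite orientations (right, orange). The left cloud stretches along the diagonal and the right one less so.

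Some intervals had called probes in both orientations. In WT there were 12, of which 10 moved the same way in both orientations and 2 did not, and in KO 11, of which 9 did and 2 did not. In chr3:19179899-19216399 an F probe was called at -1.91 in WT, while the other F probes lay between -1.66 and 0.19. Of its 9 kept R probes 4 were called, the largest at -2.65. In chr17:35080914-35090009, 2 probes of each orientation were called higher in each genotype. The largest rises were 1.40 and 1.68 in WT and 1.83 and 1.96 in KO. In chr18:75513062-75523889 the largest falls in WT were -1.29 (F) and -2.01 (R). There 3 of 8 kept R probes were called, and the rest lay between -0.79 and 0.51. In chr11:119250824-119286324 the 3 R probes rose by 0.87 to 2.44 in WT and by 1.42 to 2.54 in KO. Of the 3 F probes, 1 was called higher in WT and 2 in KO. chr13:98571741-98603323 was mixed in KO, with an F probe at 4.39 and 2 called R probes, of which the larger was at -1.58.

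The largest single differences came mostly from probes not well above background in 1 of the groups compared. Of the 10 largest rises in WT, 8 were not well above background on either WT medium array. Their log2 differences are thus set against background signal, and only the bounds count as sizes. These 8 were kept only through stimulated groups, in which they are high, so their number and calls are given as a description. Another kept probe of the same interval and orientation existed for 7 of the 10, and for 3 of these 1 or more was called the same way. The highest difference was that of A_30_P01028709 in chr17:9898206-9919226, R, which read -7.63 and -8.75 (WT) and -8.39 and -7.92 (KO) in medium, against -1.93 and -0.91 (WT) and -6.27 and -2.33 (KO) once stimulated. The stimulated KO arrays stood far apart, and KO stimulated replicate 1 was not well above background. The WT difference was 6.77 ± 1.20 (limma, adjusted p = 0.0322), a rise of at least 33.5-fold, and the KO difference was 3.85 ± 1.20 (adjusted p = 0.144). The other kept probe of that interval and orientation was at -0.51. The 5 probes whose signal was most like it over the 8 arrays were XM_001478769, A_30_P01030680, A_30_P01024309, Vdac2 and Tmed5, with Pearson correlations of 0.981, 0.980, 0.980, 0.979 and 0.978.

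A_30_P01023296, in chr9:118291593-118324230, R, was one of the large rises that neighbours shared. It read -6.25 and -5.86 (WT) and -5.65 and -6.11 (KO) in medium, against -1.13 and -1.27 (WT) and -1.24 and -2.02 (KO) once stimulated. The difference was 4.85 ± 0.30 in WT (limma, adjusted p = 0.00151) and 4.25 ± 0.30 in KO (adjusted p = 0.00240), with no overlap between conditions. Of the 5 other probes of that orientation, 3 were called in WT, at 2.32, 1.36 and 1.35, and the remaining 2 were at 1.17 and 0.06.

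A_30_P01031590, the only kept probe of chr3:18521534-18522194, R, rose by 5.93 ± 0.50 in WT (limma, adjusted p = 0.00365; at least 14.2-fold) and by 4.12 ± 0.50 in KO (adjusted p = 0.0116). It was well above background on the 4 stimulated arrays only. A_30_P01033293 in chr15:74476233-74476296, F, was well above background on the 2 stimulated WT arrays only, at -2.45 and -3.87. It rose by 5.53 ± 0.44 in WT (limma, adjusted p = 0.00317; at least 10-fold) and its KO difference was 0.28. The remaining 4 of the 10 were A_30_P01024309, A_30_P01026341, A_30_P01024337 and A_30_P01030937, which were at least 6.74, 10.4, 17.3 and 3.26-fold higher after stimulation in WT.

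The 10 largest rises in KO held 8 probes that were well above background on the 2 stimulated KO arrays and on no other. These 8 were kept only through the group in which they are high, so their number and their calls are given as a description. A_30_P01019177 in chr13:112648658-112719303, R, read -3.82 and -2.17 on the stimulated KO arrays, against -8.39 and -7.93 on those in medium and -8.44, -7.75, -7.75 and -7.74 on the WT arrays. Its KO difference was 5.17 ± 0.53 (limma, adjusted p = 0.00675; at least 8.65-fold) and its WT difference 0.35. The other 2 kept probes of that orientation were at -0.23 and 0.0 in KO. A_30_P01018426 and A_30_P01027977 were at least 8.98 and 7.77-fold higher, and none of their neighbours was called. A_30_P01022337, A_30_P01026635, A_30_P01027040, A_30_P01031900 and A_30_P01030746 were at least 6.52, 5.2, 5.53, 8.35 and 7.68-fold higher. Of the 10, the other two were A_30_P01020168 and A_30_P01023296, which rose in WT too and whose neighbours were called.

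Among the falls, A_30_P01031877 in chr6:145936225-145965575, R, had the lowest log2 difference in both genotypes, though in WT its bound is smaller than that of some other falls. It read -3.85 and -3.83 (WT) and -3.94 and -4.04 (KO) in medium, against -7.46 and -7.86 (WT) and -7.88 and -8.0 (KO) once stimulated. All 4 medium arrays were well above background and no stimulated array was, so the probe was kept only through the groups in which it is high. The difference was -3.82 ± 0.17 in WT (limma, adjusted p = 0.000686; at least 3.81-fold lower) and -3.95 ± 0.17 in KO (adjusted p = 0.000788; at least 3.45-fold lower). The other 3 R probes of that interval were at 0.35, -1.36 and 0.43 in WT, of which that at -1.36 was called (adjusted p = 0.0135).

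A_30_P01032144, in chr13:98571741-98603323, R, was the one of the 10 largest WT falls with all 8 arrays well above background. It read -2.09 and -2.0 (WT) and -2.62 and -2.52 (KO) in medium, against -4.69 and -4.85 (WT) and -3.74 and -4.56 (KO) once stimulated. The difference was -2.72 ± 0.27 in WT (limma, adjusted p = 0.00584) and -1.58 ± 0.27 in KO (adjusted p = 0.0298). Of 3 other R probes there, 2 were called in WT, at -2.29 and -2.09. It was 6.59-fold lower in WT. The rest of the 10 were not well above background on either stimulated WT array. A_30_P01027571 and A_30_P01019267 of chr4:136856064-136875614, R, were at least 4.94 and 5.97-fold lower. A_30_P01033259, A_30_P01021958, A_30_P01023018, A_30_P01021202, A_30_P01020899 and A_30_P01032987 were at least 2.77, 1.88, 2.02, 1.96, 1.67 and 1.85-fold lower. Apart from A_30_P01032144, the probes of this paragraph were kept only through WT medium, the group in which they are high. Their calls and folds are given as a description.

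Among the 10 largest falls in KO, the one probe well above background on all 8 arrays was A_30_P01029335 in chr17:64063362-64066067, R. It read -2.01 and -2.25 (WT) and -2.06 and -2.40 (KO) in medium, against -3.91 and -3.89 (WT) and -3.61 and -4.26 (KO) once stimulated, and no stimulated value reached a medium value. The difference was -1.71 ± 0.25 in KO (limma, adjusted p = 0.0193) and -1.78 ± 0.25 in WT (adjusted p = 0.0169). A_30_P01019502, A_30_P01033371, A_30_P01033043 and A_30_P01027673 were at least 1.33, 1.70, 1.23 and 2.47-fold lower. A_30_P01022563 and A_30_P01022445 had a bound under 1, so no fold is given. A_30_P01018650 and A_30_P01025627 were well above background on the WT medium arrays only, so their KO calls compare signals not well above background. Apart from A_30_P01029335, the probes of this paragraph were kept only through medium groups, in which they are high.

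Lsp1 loss gave almost no called lincRNA probe. In medium 1073 of the 9158 lincRNA probes and 3008 of the 37259 probes tested had an unadjusted p below 0.05 (limma). After adjustment 1 lincRNA probe was called lower in KO, against 0.00805% of all probes tested in either direction and 0.00537% lower. It was A_30_P01027033 in chr18:79286360-79304510, F, which read -5.55 and -5.37 (WT) and -8.43 and -8.02 (KO) in medium, against -7.77 and -7.77 (WT) and -7.86 and -7.92 (KO) once stimulated. Only the WT medium arrays were well above background, so the probe was kept through the group in which it is high. The KO minus WT difference in medium was -2.76 ± 0.17 (limma, adjusted p = 0.0323), a level at least 1.57-fold lower. The other 2 kept probes of that orientation were at 0.30 and -0.01. With no filter on dim probes its adjusted p was 0.136, and no lincRNA probe was called in this comparison under any alternative run.

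After stimulation 2 lincRNA probes were called higher in KO, against 0.0215% of all probes tested in either direction and 0.00805% higher. An unadjusted p below 0.05 (limma) was reached by 721 of the 9158 lincRNA probes and 2124 of the 37259 probes tested. A_30_P01026635 in chr12:88251191-88252540, F, read -8.44 and -8.77 (WT) and -8.40 and -7.93 (KO) in medium, against -7.76 and -7.74 (WT) and -4.13 and -3.33 (KO) once stimulated. Its KO minus WT difference was 4.02 ± 0.30 (limma, adjusted p = 0.0323; at least 4.11-fold). A_30_P01028229 in chr13:34821764-34822230, R, read -7.72 and -7.70 in stimulated WT and -5.15 and -4.93 in stimulated KO, a difference of 2.67 ± 0.19 (adjusted p = 0.0252; at least 1.66-fold). Both were well above background on the stimulated KO arrays only and were kept through that group. With no filter on dim probes their adjusted p was 0.0949 and 0.0842. The first had no other kept probe in its interval, and the one neighbour of the second was at -0.28. The number called was 0 with the deposited table, with normexp and with no filter on dim probes, and ranged from 0 to 15 when single arrays were left out.

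Other lincRNA probes with small unadjusted p did not pass the adjustment. In medium these were A_30_P01033259, A_30_P01024551, A_30_P01028306, A_30_P01021202 and A_30_P01033193, at -2.67, -2.35, -2.24, -2.90 and -3.11, with adjusted p of 0.130 to 0.150 (limma). Each was well above background on the 2 WT medium arrays and on no other array. After stimulation they were A_30_P01018812 at -1.54, A_30_P01033293 at -4.80, A_30_P01027040 at 3.97 and A_30_P01030301 at 3.42, with adjusted p of 0.0759 to 0.0942 (limma). A_30_P01018812 was well above background on the WT medium arrays only, so its difference is between signals not well above background. A_30_P01033293 was kept only through stimulated WT and A_30_P01027040 only through stimulated KO, the groups in which they are high. The median difference between genotypes over all lincRNA probes was -0.16 in medium and -0.03 after stimulation, against -0.09 and -0.04 over all probes.

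Of the long noncoding RNAs that the array names, 12 in all with 57 probes, 10 had kept probes and none was called in any comparison. NEAT1, the scaffold RNA of paraspeckles, was bright on all arrays. Its 5 probes had stimulation differences of -0.95 to -0.84 in WT (limma, adjusted p 0.0503 to 0.0713) and -0.78 to -0.61 in KO (adjusted p 0.103 to 0.168). Probe A_30_P01023251 read 4.36 and 4.09 (WT) and 4.15 and 4.0 (KO) in medium, against 3.27 and 3.28 (WT) and 3.65 and 3.14 (KO) once stimulated. All 4 stimulated values were below all 4 medium values, and its WT difference was -0.95 ± 0.20 (adjusted p = 0.0503).

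NEAT2, a former name of Malat1 in the RefSeq table, is an abundant RNA of nuclear speckles. Its 3 probes had differences of -0.84 to -0.75 in WT (limma, adjusted p 0.0645 to 0.0801) and -0.44 to -0.35 in KO (adjusted p 0.330 to 0.379). Probe A_30_P01031072 read 2.80 and 2.46 (WT) and 2.35 and 2.40 (KO) in medium, against 2.0 and 1.76 (WT) and 2.16 and 1.89 (KO) once stimulated. Stimulated values were below medium values, though none of these differences passed the test. The Malat1 promoter window above held none of the 4 motifs.

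XIST, which coats the inactive X chromosome, was above the 75th percentile on every array for its 5 probes. Their differences were -0.65 to -0.39 in WT (limma, adjusted p 0.117 to 0.173) and -0.29 to -0.19 in KO (adjusted p 0.403 to 0.601). Relative to the WT medium mean, the mean of the 5 probes was 0.18 and -0.18 (WT) and -0.22 and -0.55 (KO) in medium, against -0.51 and -0.53 (WT) and -0.58 and -0.69 (KO) once stimulated. KO medium replicate 2 lay with the stimulated arrays.

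TUG1, a broadly present RNA, had stimulation differences of 0.12 to 0.22 in WT and -0.06 to 0.05 in KO over 5 probes (limma, adjusted p 0.446 to 0.671 and 0.865 to 0.997). NRON, known for keeping NFAT factors in the cytoplasm, had 2 kept probes at 0.15 and 0.37 in WT and -0.17 and -0.14 in KO. KCNQ1ot1, the antisense RNA of an imprinted cluster, had 3 kept probes at -0.84 to 0.0 in WT. H19, an imprinted RNA, had 1 kept probe of 5, at 0.31 in WT, and HOTAIR, of the HoxC cluster, 1 of 5, at 0.05. PINC had 3 kept probes at -0.60 to 0.59 and BRN1-A had 2 at -0.36 and -0.12. TSIX and lincP21 had 5 probes each and none was kept. KO minus WT differences of all these probes lay between -0.67 and 0.64 in medium and between -0.70 and 0.71 after stimulation.

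**Figure D5:**
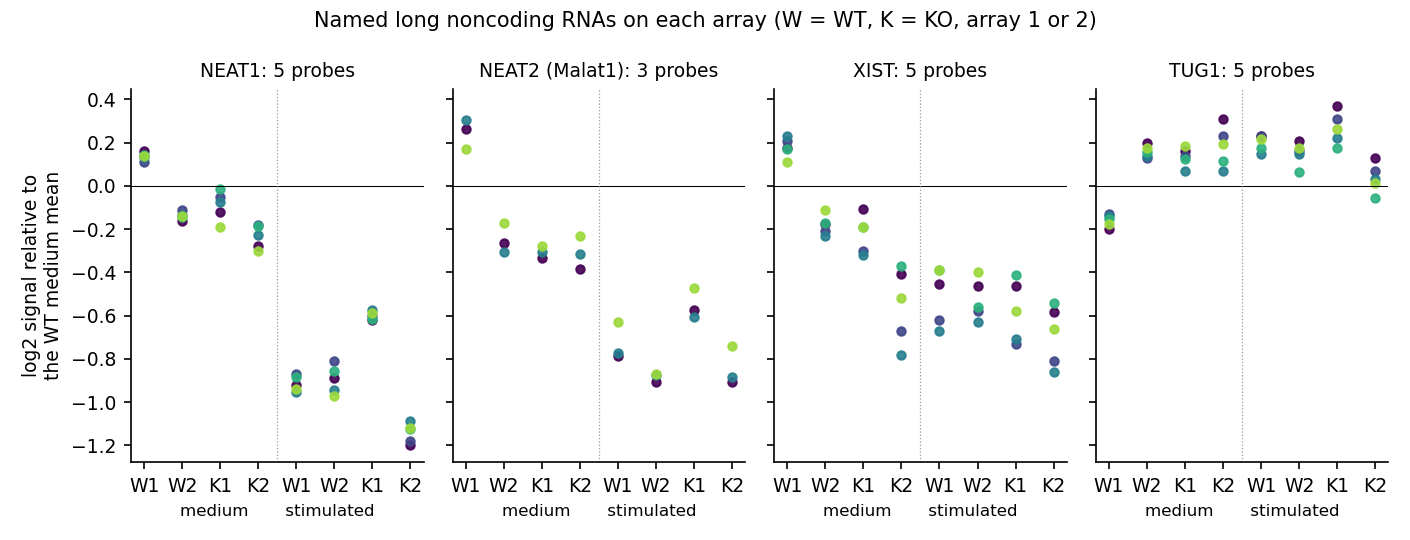
log2 signal of the probes of NEAT1, NEAT2 (Malat1), XIST and TUG1 on each of the 8 arrays, relative to the probe's own mean over the 2 WT medium arrays. Each colour is 1 probe, W is WT and K is KO. NEAT1 and NEAT2 probes lie lower on the stimulated arrays, XIST also on KO medium replicate 2, and TUG1 within 0.4 of 0 throughout.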

How the data were processed

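Per the file headers, each array was a one-colour Agilent array read by Feature Extraction 10.7.1.1, and the deposited scanner files hold the authors' background-corrected processed signal as an intensity, with flags for spots well above background. The deposited value table equals the median signal intensity of the same arrays. Here log2 of the deposited processed signal minus the array's 75th percentile over non-control probes (1207 to 1473 intensity units) was used. Control spots and outlier spots were left out. Because of an outlier spot, 11 lincRNA probes were fitted without 1 array. Each lincRNA probe had 1 spot per array, with no saturated spot, and precision is limited by the number of arrays.

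limma 3.58.1 in R 4.3.3 fitted 4 group means to the 37259 probes that passed the filter on 8 arrays (residual df 4, prior df 2.28). Benjamini-Hochberg adjustment ran over all of them, and called means adjusted p below 0.05. The script was tested on simulated data. Standard errors are limma's moderated ones. Alternatives were other background corrections and normalizations, the filter, blocks, an intensity trend and arrays left out. The probes named were drawn from the 10 largest called rises and falls per genotype, the called or smallest-p probes between genotypes, the 5 intervals with most kept probes, intervals called in both orientations, and named RNAs. Intervals with every probe called and chains of intervals were picked after seeing values. The members and lists were chosen with earlier results of these data known.

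Probe sequences and an mm9 annotation were not used here, so intervals carry no gene names.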

Additional observations from a re-analysis of the deposited data

Results flagged for a closer look

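For 6 of the lincRNA probes that the naming rule picked, both stimulated WT arrays lay below both medium arrays while both stimulated KO arrays lay above both KO medium arrays. The difference between responses was tested with limma, and none passed (adjusted p 0.191 to 0.588). The KO minus WT difference in response was 3.08 (log2) for A_30_P01032987, 2.64 for A_30_P01027033, 1.99 for A_30_P01024551, 2.40 for A_30_P01028306 and 2.99 for A_30_P01033193. For these 5 neither the stimulated WT arrays nor any KO array was well above background, so the KO differences, 0.30 to 0.59, are between signals not well above background. For A_30_P01030301, in chr7:119735208-119822808, the difference was 4.03, from -1.04 in WT and 3.0 in KO. It was well above background on both stimulated KO arrays, both WT medium arrays and KO medium replicate 1.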

How the results depend on the processing

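No value of a named lincRNA probe that was called in either setting changed sign under any alternative run. The 469 calls in WT became 2469 with no filter on dim probes, 951 with a replicate block within genotype, 810 with only the groups compared, 810 without both KO replicate 2 arrays (an alternative chosen after seeing the data, as was normexp) and 51 to 585 when single arrays were left out. The 282 calls in KO became 149, 429, 0 and 49 under the same 4 settings and 69 to 324 with single arrays left out; of those 49, 34 were among the 282. The single call between genotypes in medium became 0 with no filter, with the filter for all 8 arrays, with normexp, quantile normalization, the deposited table, the replicate block, the intensity trend, only the groups compared, without both KO replicate 2 arrays, and 0 to 0 with single arrays left out. The 2 calls after stimulation became 0 under these, except 4 with quantile normalization, 6 without both KO replicate 2 arrays and 0 to 15 with single arrays left out. The difference between responses gave 1 call with quantile normalization and 0 otherwise. Over all probes tested, the 2284 WT calls became 8202 with no filter and 4360 with the block within genotype. With only the groups compared they became 3712. The 1658 KO calls over all probes became 775, 2559 and 0 in the same order. A replicate block over all groups gave 576 in WT and 280 in KO, against 2556 and 1569 over all probes. No label says that the numbers pair the samples. Over all probes, deviations of same-numbered arrays correlated at 0.58 between KO medium and KO stimulated, whose replicate 2 arrays share the neutrophil and erythroid signal. Between the other groups they correlated at -0.14 to 0.09. Over the lincRNA probes the values were 0.24 and -0.10 to 0.15. With the block within genotype the KO calls were 242 higher and 187 lower, against 212 and 70. An array left alone in its group is assumed to vary like the others. The cause of these shifts was not tested, and 2 arrays a group and signals near background limit them all.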
